A study of Mus musculus with 6 samples.

Results

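The 10 genes examined belong to the mTOR and AMPK pathways and were measured in RNA sequencing libraries of PP2Ac knockdown and control cells. They were taken by name from the gene table: Mtor, Rptor, Rictor, Tsc1, Tsc2, Rheb, Prkaa1, Prkab1, Stk11 and Ddit4. Each name matched 1 row, so the members were 10 of 54532 genes, and all 10 were among the 11652 genes with a mean of at least 1 FPKM (fragments per kilobase of gene and of mapped reads, scaled to library size) over the 6 libraries. The libraries were labelled MIN6, a mouse insulinoma line used as a model of pancreatic beta cells. The control group (shc in the sample titles) and the PP2Ac knockdown group (sh2) held 3 libraries each. PP2Ac is the enzymatic core of the phosphatase PP2A. The labels name no lipid or other treatment, and do not say how many hairpins or cell clones were used or whether the replicates were separate cultures. The p-values therefore measure only the spread between these libraries, which may be technical.

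mTOR is a protein kinase that works in a pair of complexes. In mTORC1 it is joined by raptor (Rptor) and drives protein and lipid synthesis and restrains autophagy. In mTORC2 it is joined by rictor (Rictor) and phosphorylates kinases such as AKT. The small GTPase RHEB switches mTORC1 on at the lysosome, and the TSC1-TSC2 complex switches RHEB off. AMPK is a trimer of alpha, beta and gamma subunits that senses low cellular energy, is activated by the kinase LKB1 (Stk11) and acts against mTORC1 through TSC2 and raptor. REDD1 (Ddit4) is a stress-induced inhibitor of mTORC1. In beta cells this network links nutrient supply to cell mass and insulin secretion. Its activity is set mainly by phosphorylation, which transcript levels do not measure.

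Several facts of the whole table bear on every value below. Recovered reads came to 14614737 to 16030939 per library, of which 15093 to 16325 fell on the 10 members. The targeted transcript Ppp2ca, for the alpha isoform of PP2Ac, averaged 37.6 ± 4.33 FPKM in control and 10.8 ± 0.617 in knockdown (SD, n = 3), with no overlap between the groups. Ppp2cb, for the beta isoform, averaged 101 ± 10.6 and 86.9 ± 3.45 FPKM and missed the threshold (limma adjusted p = 0.066), although its groups did not overlap. It passed as lower in 4 of 16 alternatives, which were median-of-ratios scaling, scaling without Gm23935, rRNA and mitochondrially encoded genes, voom and omission of control library 3 (limma adjusted p from 0.0109 to 0.0294), and with the GC trend removed (log2 -0.44, limma adjusted p = 0.00325). Of 10 beta cell markers, 8 averaged below 1 FPKM, and 5 (Ins1, Ins2, Slc2a2, Nkx6-1 and Ucn3) were listed at 0 in all 6 libraries. These levels are at odds with the MIN6 label, and the identity of the cells was not tested. The summed level of the 10 beta cell markers was 2.98 to 4.65 FPKM in control and 7.99 to 9.57 in knockdown. Most of it was Pdx1 (1.68 and 3.96 FPKM on average) and Mafa (1.78 and 4.86), both called higher in knockdown (limma adjusted p = 0.000802 and 0.000344). The summed level of 11 stromal, endothelial and immune markers was 525 to 591 FPKM in control and 1153 to 1315 in knockdown. Most of that sum was Vim (426 and 952 FPKM on average) and Col1a2 (98.8 and 165). Col1a1 (9.95 and 86.9) and Col3a1 (0.834 and 31.7) had the largest log2 rises among those tested, 3.01 and 4.16. The macrophage marker Cd68 went the other way (16.5 and 2.27), and Cdh5 and Adgre1 were listed at 0 in all 6 libraries. For 8 acinar and duct markers the sum was 673 to 841 and 353 to 392 FPKM, nearly all of it Spp1. The 4 other endocrine markers summed to 0.637 to 1.14 and 0 to 0.480 FPKM. Mitochondrially encoded mRNAs took 2.65% to 3.38% of reads in control and 1.23% to 1.34% in knockdown. The part of these differences in the results below was not tested. In bulk RNA, a change in the make-up of the cells and a change in RNA per cell cannot be told apart. Across the table, 62.4% of tested genes passed a limma adjusted p of 0.05, 33.3% as higher and 29.1% as lower in knockdown, and in 68.1% the groups did not overlap. The split of higher and lower calls moved with the scaling, from 3879 and 3388 to 4265 and 2644 with equal FPKM sums, and to 3395 and 3736 with mitochondrially encoded genes, rRNA and Gm23935 removed.

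Base composition also differed with the group. Across 11635 tested genes with a reference transcript, the log2 fold change rose with the GC content of the transcript (Spearman's rho 0.45 and Pearson's r 0.41 across genes, which are not independent replicates and share the same 6 libraries). The slope of each library's log2 level on GC content, relative to the mean of all 6, was -0.25 to -0.14 per 10 percentage points in the control libraries and 0.13 to 0.29 in the knockdown libraries. Because the slopes separate by group, a difference in library chemistry and a difference in the cells cannot be told apart here. For each member the value after removal of the GC trend from every library is given beside the main one. That setting was chosen after the data were seen, and it also removes any difference of the cells that goes with GC content.

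**Figure D1:**
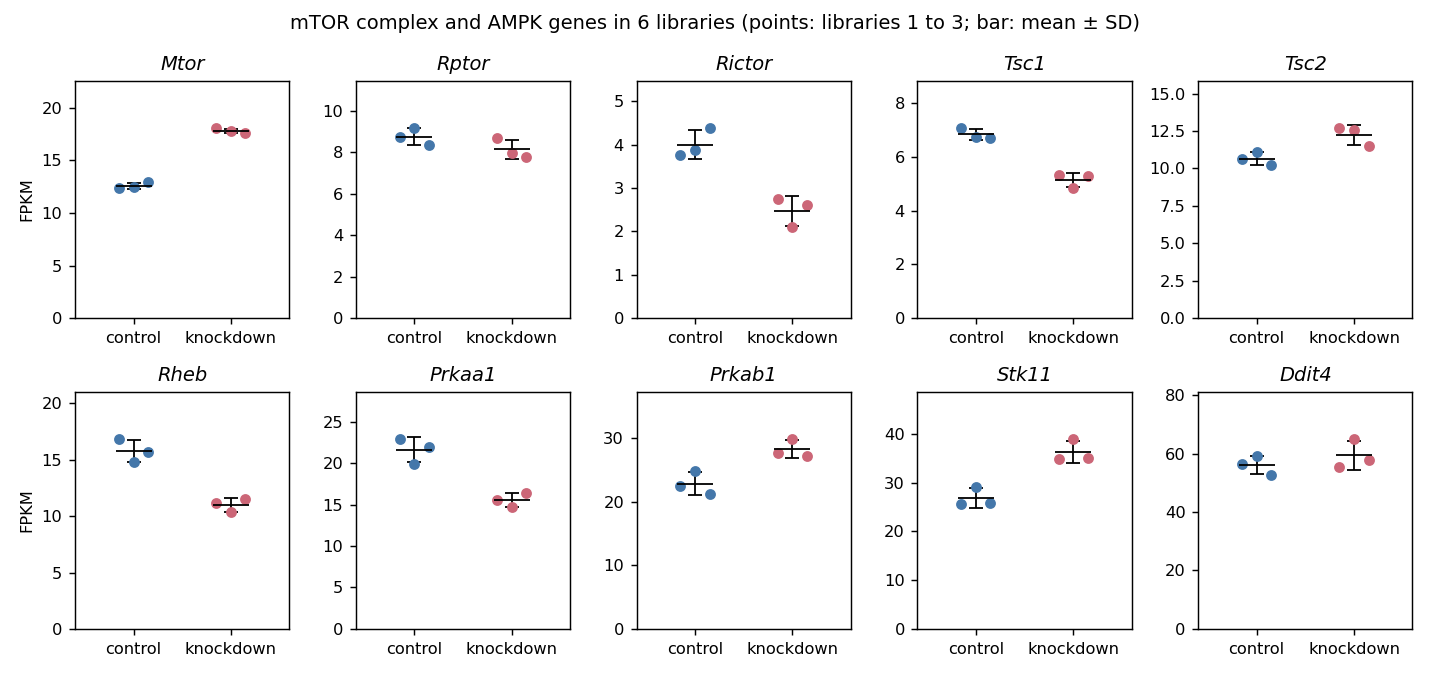
FPKM (y axis, from 0) of the 10 members in the 3 control and 3 knockdown libraries, with a point for each library and bars for mean ± SD. Mtor, Tsc2, Prkab1 and Stk11 lie higher in every knockdown library, Rictor, Tsc1, Rheb and Prkaa1 lie lower, and Rptor and Ddit4 overlap.

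Of the 10 members, 4 were higher in knockdown (Mtor, Stk11, Prkab1 and Tsc2), 4 were lower (Rictor, Rheb, Prkaa1 and Tsc1) and 2 did not pass the threshold (Rptor and Ddit4). These 8 calls stand beside a share of 62.4% called in the whole table. The median log2 change of the 10 was -0.01, against 0.03 for all tested genes. The groups did not overlap in 8 members, against 68.1% of tested genes. After removal of the GC trend, 1 member was called higher (Mtor) and 4 lower (Tsc1, Rheb, Rptor and Ddit4), where 58.1% of tested genes were called, 29.3% as higher and 28.8% as lower.

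The kinase itself and its mTORC2 partner went in opposite directions. Mtor (ENSMUSG00000028991, chromosome 4, 148448611 to 148557683, plus strand, GRCm38), the shared catalytic subunit of both complexes, had 12.4, 12.5 and 12.9 FPKM in control and 18.0, 17.8 and 17.6 FPKM in knockdown. Every knockdown library was above every control library, and relative to the mean the replicates lay closer together than for any other member (coefficient of variation 2.36% in control and 1.22% in knockdown). The means were 12.6 ± 0.297 and 17.8 ± 0.217 FPKM (SD, n = 3), a rise of 41.4%, with a log2 fold change of 0.47 (95% interval 0.33 to 0.61, limma adjusted p = 0.000277). Removal of the GC trend left 0.24 (limma adjusted p = 0.00776).

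Rictor (ENSMUSG00000050310, chromosome 15, 6708379 to 6800401, plus strand), the scaffold that defines mTORC2, had 3.77, 3.86 and 4.37 FPKM in control and 2.75, 2.09 and 2.60 FPKM in knockdown. All 3 knockdown libraries were below all 3 control libraries. It fell by 38.0%, from 4.002 ± 0.323 to 2.48 ± 0.345 FPKM (SD, n = 3), with a log2 fold change of -0.53 (95% interval -0.77 to -0.29, limma adjusted p = 0.00256). It was the least abundant member, with 1015 to 1215 reads in control and 542 to 719 in knockdown, and the pseudocount of 1 makes its change smaller: voom on the reads gave -0.72. Removal of the GC trend ended the call, at -0.19 (limma adjusted p = 0.0987).

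Rptor (ENSMUSG00000025583, chromosome 11, 119602905 to 119899576, plus strand), which encodes the substrate-binding subunit of mTORC1, had 8.76, 9.15 and 8.35 FPKM in control and 8.67, 7.98 and 7.76 FPKM in knockdown. The highest knockdown library lay inside the control range, so the groups overlapped. The log2 difference was -0.09 with a 95% interval of -0.26 to 0.07 (limma adjusted p = 0.284). It passed at -0.39 once the GC trend was removed (limma adjusted p = 0.00161).

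Because raptor and rictor mark the 2 complexes, their transcripts were also set against each other inside each library. The ratio of Rptor to Rictor FPKM was 2.32, 2.37 and 1.91 in control and 3.16, 3.82 and 2.98 in knockdown. Every knockdown ratio was above every control ratio, and the mean was 1.51 times as high (2.20 ± 0.252 against 3.32 ± 0.441, SD, n = 3). A two-sided exact permutation test gave p = 0.1, which is the floor for groups of 3, and also 0.1 when adjusted over the 3 of 4 planned ratios that varied. Library scaling cannot change such a ratio, but base composition can, as the reference transcripts hold 56.5% GC for Rptor and 42.5% for Rictor. With the GC trend removed, the log2 change was -0.39 for Rptor and -0.19 for Rictor, so the fall was then larger for Rptor. The higher ratio in knockdown therefore depends on that setting, in which the ratio itself was not computed.

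Among the other subunits and assembly factors of the complexes, changes also ran both ways. Of 12 genes on that list, Mtor, Rptor and Rictor included, 10 could be tested: 5 rose, 3 fell and 2 missed the threshold, with a median log2 change of 0.17. Akt1s1, which encodes the mTORC1 inhibitor PRAS40, rose from 38.9 ± 3.67 to 61.6 ± 7.57 FPKM, and Mlst8, the small subunit shared by both complexes, from 5.78 ± 1.26 to 8.55 ± 0.965 FPKM. Telo2, which helps assemble mTOR and related kinases, rose from 5.10 ± 0.404 to 7.32 ± 0.467 FPKM, while its partner Tti2 fell from 4.96 ± 0.165 to 3.43 ± 0.306 FPKM (SD, n = 3). The calls of Mlst8 and Telo2 ended with the GC trend removed (log2 0.26 and 0.12), and that of Mlst8 also without knockdown library 1 (limma adjusted p = 0.0519) and with no filter on low values (limma adjusted p = 0.0586). After GC removal, 4 of the list were called, 2 in each direction, and 5 were called with no filter on low values.

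Short motifs in the promoters were searched as a description. RefSeq promoter windows (GRCm38.p6, 250 bases before to 50 after the start) matched all 10 members. The letters CCGGAAG, the core that ETS factors bind, were searched on both strands. They occurred in the windows of Mtor, Tsc2 and Prkab1, 3 of the 4 members that rose in the main test, and in no other member. Of 32851 promoters of the same length, 8.86% hold them. The rise of Tsc2 passed in only 5 of 16 alternatives. With the GC trend removed, neither Tsc2 (log2 -0.07) nor Prkab1 (0.04) was called. A link between this motif and the changes was not tested. The E-box CACGTG, the core of sites for MYC and TFEB family factors, occurred in Rheb alone, against 7.15% of promoters. No window held the ATF4 composite element TGATGNAA (3.97% of promoters), the cyclic AMP element TGACGTCA (1.79%) or the NRF1 motif (0.971%), and 6 held the GC box GGGCGG (35.7%), which overlaps none of the capitals below. The 4 windows with an ETS or E-box match are shown 5′ to 3′ from 250 bases before to 20 after the start, with those matches in capitals, because the ETS match is shared by 3 members that rose and the E-box match is in 1 member only.
Mtor promoter (chr4:148448332-148448601, plus strand): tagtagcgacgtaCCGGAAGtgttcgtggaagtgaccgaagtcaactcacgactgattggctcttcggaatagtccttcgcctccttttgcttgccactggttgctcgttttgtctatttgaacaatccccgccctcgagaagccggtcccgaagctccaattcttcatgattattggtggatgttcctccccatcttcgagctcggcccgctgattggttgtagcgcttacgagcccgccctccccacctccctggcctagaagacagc
Tsc2 promoter (chr17:24632608-24632877, minus strand): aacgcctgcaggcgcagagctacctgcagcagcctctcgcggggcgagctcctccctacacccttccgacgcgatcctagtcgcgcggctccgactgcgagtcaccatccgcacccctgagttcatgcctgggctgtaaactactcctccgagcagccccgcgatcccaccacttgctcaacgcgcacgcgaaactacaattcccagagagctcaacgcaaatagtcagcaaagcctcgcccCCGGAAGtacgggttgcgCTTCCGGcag
Prkab1 promoter (chr5:116024409-116024678, minus strand): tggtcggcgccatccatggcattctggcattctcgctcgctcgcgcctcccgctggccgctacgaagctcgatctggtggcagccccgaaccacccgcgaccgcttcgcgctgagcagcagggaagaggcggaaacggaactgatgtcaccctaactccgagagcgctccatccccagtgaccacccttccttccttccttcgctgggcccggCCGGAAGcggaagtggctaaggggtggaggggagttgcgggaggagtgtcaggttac
Rheb promoter (chr5:24842342-24842611, minus strand): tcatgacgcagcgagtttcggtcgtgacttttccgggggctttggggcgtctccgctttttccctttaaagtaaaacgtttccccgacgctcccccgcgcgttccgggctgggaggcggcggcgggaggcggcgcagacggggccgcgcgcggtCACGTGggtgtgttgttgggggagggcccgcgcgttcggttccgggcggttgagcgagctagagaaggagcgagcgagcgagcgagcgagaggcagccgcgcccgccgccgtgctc
Mtor carried its match 237 bases before the start, Prkab1 37 before, and Tsc2 has a match 8 bases before and another, on the opposite strand, 11 bases after. The promoters of Rictor and Prkaa1, whose transcripts are poor in GC, were rich in it, at 78.3% and 82.0% against a median of 52.7% for all promoters.

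The switch upstream of mTORC1 also divided, between the TSC subunits. Tsc1 (ENSMUSG00000026812, chromosome 2, 28641228 to 28691167, plus strand), which stabilises the complex, had 7.05, 6.72 and 6.71 FPKM in control and 5.32, 4.85 and 5.28 FPKM in knockdown, without overlap. It fell by 24.5%, from 6.83 ± 0.194 to 5.15 ± 0.262 FPKM (SD, n = 3), with a log2 fold change of -0.35 (95% interval -0.51 to -0.18, limma adjusted p = 0.00301). Without the GC trend the change was -0.50 (limma adjusted p = 0.000526).

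Tsc2 (ENSMUSG00000002496, chromosome 17, 24595816 to 24632630, minus strand), the subunit that acts on RHEB, had 10.6, 11.1 and 10.3 FPKM in control and 12.7, 12.5 and 11.5 FPKM in knockdown. The knockdown libraries were all higher, but the lowest of them lay close to the highest control library. The means were 10.7 ± 0.415 and 12.2 ± 0.658 FPKM (SD, n = 3), with a log2 fold change of 0.18 (95% interval 0.02 to 0.34) that only just passed (limma adjusted p = 0.0493). This call held in 5 of 16 alternatives, whose log2 values ran from 0.11 to 0.26, and with the GC trend removed the value was -0.07 (limma adjusted p = 0.289). Leaving out control library 1, 2 or 3 or knockdown library 1 or 2 ended the call (limma adjusted p from 0.0602 to 0.154), and leaving out knockdown library 3 did not. Tsc2 also shares 693 exonic bases with Pkd1 on the opposite strand, which averaged 16.8 FPKM in control and 21.8 in knockdown, and without strand information reads in that stretch cannot be assigned.

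The ratio of Tsc1 to Tsc2 was 0.665, 0.606 and 0.654 in control and 0.420, 0.387 and 0.460 in knockdown. All knockdown ratios were lower, with means of 0.642 ± 0.0311 and 0.422 ± 0.0369 (SD, n = 3; two-sided exact permutation p = 0.1, the smallest possible, and 0.1 adjusted over the family). The reference transcripts of the pair hold 51.7% and 55.0% GC.

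Rheb (ENSMUSG00000028945, chromosome 5, 24802823 to 24842624, minus strand), the GTPase that activates mTORC1, had 16.8, 14.8 and 15.7 FPKM in control and 11.2, 10.4 and 11.6 FPKM in knockdown. The groups lay well apart. Its level fell by 30.1%, from 15.8 ± 1.00 to 11.02 ± 0.614 FPKM (SD, n = 3), with a log2 fold change of -0.48 (95% interval -0.65 to -0.31, limma adjusted p = 0.000745). Removal of the GC trend left it at -0.41 (limma adjusted p = 0.000794).

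All 5 genes of the TSC and Rheb list were called, 2 higher and 3 lower, with a median of -0.27, where 62.4% of all tested genes were called. With no filter on low values, or without control library 2 or 3 or knockdown library 1 or 2, 3 of the 5 were called. Tbc1d7, the third subunit of the TSC complex, rose from 2.96 ± 0.293 to 4.69 ± 1.04 FPKM. Rhebl1, a close relative of Rheb, fell from 5.45 ± 0.652 to 4.33 ± 0.121 FPKM (SD, n = 3), a call lost in 7 of 15 alternatives, among them leaving out control library 2 or 3 or any knockdown library (limma adjusted p from 0.052 to 0.102). With the GC trend removed, 4 of the 5 were called, 1 higher and 3 lower, where 58.1% of all tested genes were called.

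**Figure D2:**
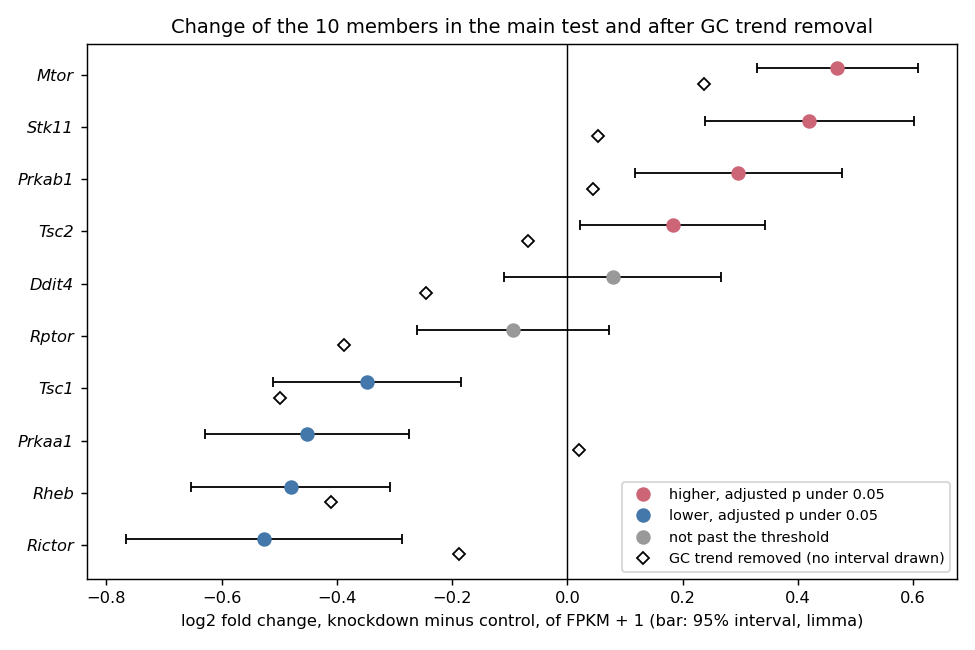
Log2 fold change of FPKM + 1 (x axis, knockdown minus control) for each member (y axis): circles with 95% intervals for the main test, open diamonds for the value after removal of the GC trend. Mtor, Tsc1 and Rheb stay on their side of 0 at 0.24, -0.50 and -0.41, while Prkaa1, Prkab1 and Stk11 move to 0.02, 0.04 and 0.05.

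Among the AMPK subunits, Prkaa1 was lower and Prkab1 higher in knockdown, and neither passed with the GC trend removed. Prkaa1 (ENSMUSG00000050697, chromosome 15, 5143861 to 5181899, plus strand), which encodes the catalytic alpha 1 subunit, had 22.9, 19.9 and 22.0 FPKM in control and 15.5, 14.7 and 16.4 FPKM in knockdown. No knockdown library reached the lowest control library. It fell by 28.2%, from 21.6 ± 1.52 to 15.5 ± 0.846 FPKM (SD, n = 3), with a log2 fold change of -0.45 (95% interval -0.63 to -0.28, limma adjusted p = 0.00116). Its transcript has the lowest GC content of the members, 40.2%, and removal of the GC trend took the value to 0.02 (limma adjusted p = 0.765).

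Prkab1 (ENSMUSG00000029513, chromosome 5, 116013586 to 116024508, minus strand), which encodes the glycogen-binding beta 1 subunit, had 22.5, 24.8 and 21.2 FPKM in control and 27.7, 29.8 and 27.2 FPKM in knockdown. Here every knockdown library was the higher. The means were 22.8 ± 1.82 and 28.2 ± 1.40 FPKM (SD, n = 3), a rise of 23.7% and a log2 fold change of 0.30 (95% interval 0.12 to 0.48, limma adjusted p = 0.0104). With the GC trend removed it was 0.04 (limma adjusted p = 0.528).

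Set against their alternative subunits, the alpha pool was all Prkaa1, since Prkaa2, for alpha 2, was listed at 0 in all 6 libraries. Prkab1 made up 82.7%, 82.8% and 80.6% of the summed beta FPKM in control and 87.7%, 89.4% and 86.3% in knockdown, higher in every knockdown library (two-sided exact permutation p = 0.1, the smallest possible, and 0.1 adjusted over the family). The reference transcripts hold 55.0% GC for Prkab1 and 46.8% for Prkab2. With the GC trend removed, their log2 changes were 0.04 and -0.20 and neither passed. The share itself was not computed in that setting. Prkab2, for beta 2, fell from 4.99 ± 0.245 to 3.91 ± 0.393 FPKM, a call lost in 5 of 15 alternatives. These were equal FPKM sums (limma adjusted p = 0.135) and leaving out control library 2 or 3 or knockdown library 1 or 2 (0.0527 to 0.0666), and removal of the GC trend also ended it (0.0516). Prkag1, for the gamma 1 subunit that binds adenine nucleotides, averaged 16.1 ± 0.612 and 16.4 ± 1.18 FPKM and did not pass (limma adjusted p = 0.801). Prkag2 rose from 1.57 ± 0.216 to 2.32 ± 0.281 FPKM, a call lost with no filter on low values and without control library 2 or knockdown library 1 (limma adjusted p from 0.0688 to 0.0847), and Prkag3 was too low to test at 0.103 ± 0.0778 and 0.723 ± 0.138 FPKM (SD, n = 3). Of the 7 AMPK subunit genes 5 could be tested: 2 rose, 2 fell and 1 missed the threshold, with a median of 0.02. Without control library 2 or without knockdown library 1, 2 of the 5 were called. With the GC trend removed, Prkag2 was the 1 called higher and Prkag1 (log2 -0.17, limma adjusted p = 0.0483) the 1 called lower. In that setting 58.1% of all tested genes were called.

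**Figure D3:**
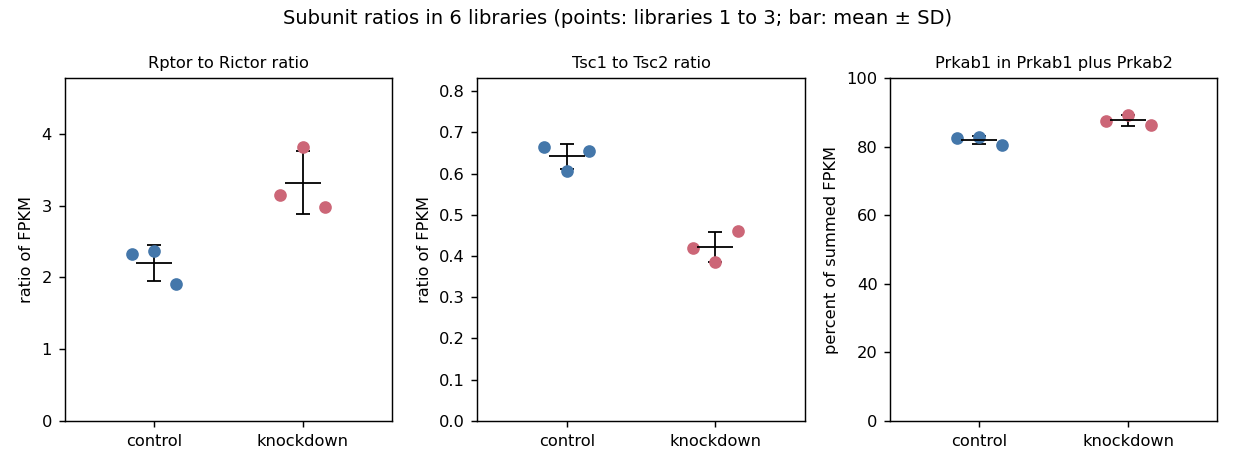
The Rptor to Rictor ratio, the Tsc1 to Tsc2 ratio and the Prkab1 share of beta subunit FPKM (y axes, from 0) in each control and knockdown library, with mean ± SD. In each panel the 3 knockdown points do not overlap the 3 control points; mean values go from 2.20 to 3.32, from 0.642 to 0.422 and from 82.0% to 87.8%.

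Stk11 (ENSMUSG00000003068, chromosome 10, 80115803 to 80130682, plus strand), which encodes LKB1, the main kinase upstream of AMPK, had 25.7, 29.1 and 25.8 FPKM in control and 34.8, 38.9 and 35.0 FPKM in knockdown. The second library was the highest of each group, and the groups did not overlap. Its level rose by 35.0%, from 26.9 ± 1.97 to 36.3 ± 2.31 FPKM (SD, n = 3), with a log2 fold change of 0.42 (95% interval 0.24 to 0.60, limma adjusted p = 0.00198). Its transcript has the highest GC content of the members, 59.7%, and with the GC trend removed the value was 0.05 (limma adjusted p = 0.396). Stk11 shares 232 exonic bases with Cbarp on the opposite strand, which averaged 3.98 FPKM in control and 6.10 in knockdown.

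The other upstream kinases and LKB1 partners went both ways: of 8 tested, Stk11 included, 4 rose, 3 fell and 1 missed the threshold, with a median of 0.26. Among all tested genes 33.3% rose and 29.1% fell. Camkk1 and Camkk2, kinases that activate AMPK in response to calcium, rose from 1.84 ± 0.219 to 4.83 ± 0.380 FPKM and from 2.69 ± 0.210 to 4.23 ± 0.0169 FPKM. The LKB1 complex divided, as the pseudokinase gene Stradb rose from 1.45 ± 0.144 to 2.45 ± 0.248 FPKM and the scaffold gene Cab39, for MO25, fell from 23.5 ± 1.495 to 16.3 ± 1.11 FPKM (SD, n = 3). With the GC trend removed 5 of the list were called, and all 4 genes just named were among them (limma adjusted p from 0.000394 to 0.00758). The share of all tested genes called in that setting was 58.1%.

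Ddit4 (ENSMUSG00000020108, chromosome 10, 59949669 to 59951834, minus strand), the most abundant member, had 56.5, 59.2 and 52.8 FPKM in control and 55.3, 65.0 and 58.0 FPKM in knockdown. The groups overlapped, and the second knockdown library was the highest. The log2 difference was 0.08 with a 95% interval of -0.11 to 0.27 (limma adjusted p = 0.429). The value turned to -0.25 and passed with the GC trend removed (limma adjusted p = 0.00876). The 2 other stress-induced mTORC1 inhibitors high enough to test were the sestrins. Sesn2, a sestrin gene induced by amino acid shortage, fell from 62.2 ± 3.94 to 43.3 ± 2.10 FPKM (limma adjusted p = 0.000484), and Sesn1, a p53-induced sestrin gene, rose from 2.12 ± 0.0734 to 3.91 ± 0.139 FPKM (limma adjusted p = 0.000233; SD, n = 3 for both). Of the 5 genes on that list, 3 were tested, with a median of 0.08, and Ddit4l was listed at 0 in all 6 libraries.

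Most tested genes of the lysosomal arm that brings mTORC1 to RHEB fell. Of 13 Rag, Ragulator and folliculin genes 10 could be tested: none rose, 7 fell and 3 missed the threshold, with a median of -0.76, where 29.1% of all tested genes fell, and 9 were lower with the GC trend removed. The 3 that missed the threshold are Ragulator genes, Lamtor1, Lamtor2 and Lamtor4, with log2 values of 0.05, 0.03 and 0.26. With the GC trend removed these values turned to -0.24, -0.27 and -0.03. Lamtor1 and Lamtor2 were then called lower (limma adjusted p = 0.0375 and 0.0123). Lamtor4 was close to the threshold (limma adjusted p = 0.0549), and each knockdown library was above all controls. In some alternatives 1 gene of the list was called higher. These were equal FPKM sums, the replicate block, a filter at a mean of 5 FPKM and the omission of knockdown library 3. Fnip1 and Fnip2, partners of folliculin, fell from 15.1 ± 1.91 to 4.16 ± 0.304 FPKM and from 10.8 ± 0.427 to 5.06 ± 0.632 FPKM. Flcn, which encodes folliculin, an activator of the Rag GTPases, fell from 27.7 ± 1.87 to 15.0 ± 0.921 FPKM, and the Rag GTPase gene Rraga from 76.0 ± 1.78 to 36.7 ± 1.54 FPKM (SD, n = 3). The adjusted p of these 4 ran from 9.10e-06 to 5.43e-05 in limma. The 11 GATOR and KICSTOR genes, which relay amino acid levels to the Rags, counted 2 that rose, 3 that fell and 6 that missed the threshold, with a median of -0.03. Among all tested genes 33.3% rose and 29.1% fell. Sec13 rose from 37.7 ± 2.96 to 51.7 ± 2.96 FPKM, and Nprl3, Mios and Seh1l fell, Nprl3 from 6.89 ± 0.120 to 4.91 ± 0.578 FPKM, Mios from 4.64 ± 0.207 to 3.09 ± 0.435 and Seh1l from 25.7 ± 1.33 to 20.8 ± 1.84 (SD, n = 3). The calls of Mios and Seh1l ended with the GC trend removed (log2 -0.21 and 0.08), and that of Seh1l also with equal FPKM sums.

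Genes of proteins that the kinases phosphorylate were tested by list. Of 11 mTORC1 substrate genes 10 could be tested: 4 rose, 3 fell and 3 missed the threshold, with a median of 0.12. Among all tested genes 33.3% rose and 29.1% fell. Tfeb, a lysosome gene activator held back by mTORC1, rose from 2.79 ± 0.376 to 6.64 ± 0.841 FPKM, Lpin1, a lipid enzyme gene, from 4.66 ± 0.255 to 6.76 ± 0.615 and Ulk1, an autophagy kinase gene, from 10.3 ± 0.398 to 15.5 ± 0.796. Rps6kb1, which encodes the S6 kinase, fell from 4.80 ± 0.189 to 2.92 ± 0.271 FPKM (SD, n = 3). The calls of Ulk1 and Rps6kb1 ended with the GC trend removed (log2 0.15 and -0.04).

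Of 7 genes for kinases that mTORC2 phosphorylates 5 could be tested: 4 rose, none fell and 1 missed the threshold, with a median of 0.39, and 4 were higher with the GC trend removed. Sgk1 rose from 6.42 ± 0.324 to 11.9 ± 1.15 FPKM, Akt1 from 102 ± 3.89 to 161 ± 10.9, Akt2 from 29.0 ± 1.93 to 38.5 ± 4.63 and Prkca from 3.70 ± 0.554 to 4.84 ± 0.183 FPKM (SD, n = 3). The call of Akt2 ended with the GC trend removed (log2 0.13), and that of Prkca in 6 of 15 alternatives, among them leaving out control library 1 or 2 or knockdown library 1 or 3 (limma adjusted p from 0.0504 to 0.0681). Of 12 AMPK substrate genes, with Rptor, Tsc2 and Ulk1 among them, 11 could be tested: 8 rose, 1 fell and 2 missed the threshold, with a median of 0.55. Acacb, for an acetyl-CoA carboxylase, rose from 1.38 ± 0.181 to 5.44 ± 0.381 FPKM, and Tbc1d1, a regulator of glucose transporter traffic, from 7.72 ± 0.363 to 13.5 ± 0.496 (SD, n = 3). Without the GC trend 5 of this list were higher and 2 lower. Over all 10 lists, members included, 75 of 88 genes were tested. Of these 75, 30 were higher and 26 lower. Of all 11652 tested genes, 3879 (33.3%) were higher and 3388 (29.1%) lower. The balance depends on the setting, with 33 higher and 21 lower at equal FPKM sums and 20 higher and 28 lower with the GC trend removed.

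**Figure D4:**
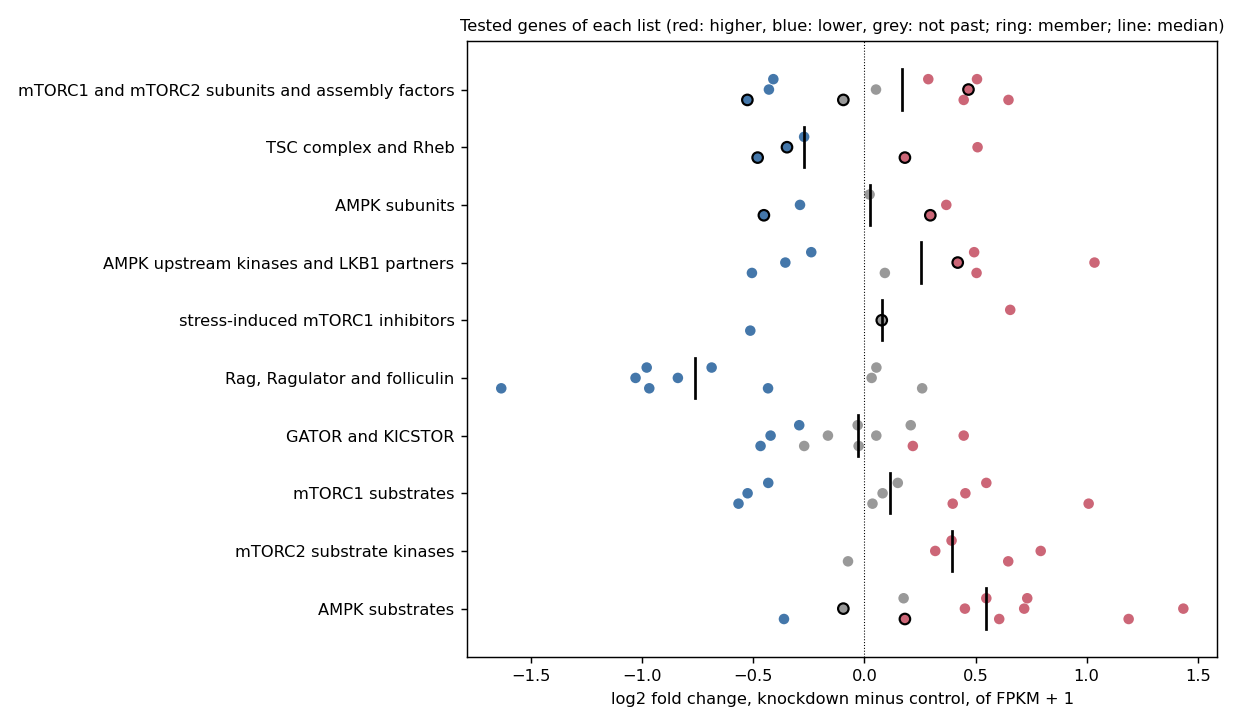
Log2 fold change of FPKM + 1 (x axis, knockdown minus control) of each tested gene in the 10 pathway lists (rows), with the list's median as a line and rings around members. The Rag, Ragulator and folliculin row lies furthest to the left, with a median of -0.76, and the AMPK substrate row furthest to the right, with a median of 0.55.

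The members that fell had the 4 lowest GC contents of the 10, from 40.2% for Prkaa1 through 42.5% for Rictor and 47.1% for Rheb to 51.7% for Tsc1. The 4 that rose held 54.2% (Mtor), 55.0% (Tsc2), 55.0% (Prkab1) and 59.7% (Stk11), and the pair that did not pass held 56.5% (Rptor) and 57.9% (Ddit4). Among all tested genes with 42% to 45% GC, the class of Rictor, the median log2 change was -0.29 and 51.2% were lower. In the class of 54% to 57%, which holds Mtor, Rptor, Tsc2 and Prkab1, the median was 0.25 and 49.9% were higher. Rheb, Tsc1 and Rptor lay below the lower quartile of their classes, and the other 7 members lay between the quartiles of theirs. Transcript length and 3′ UTR length showed next to no relation to the change across genes (Spearman's rho 0.00 and 0.02).

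**Figure D5:**
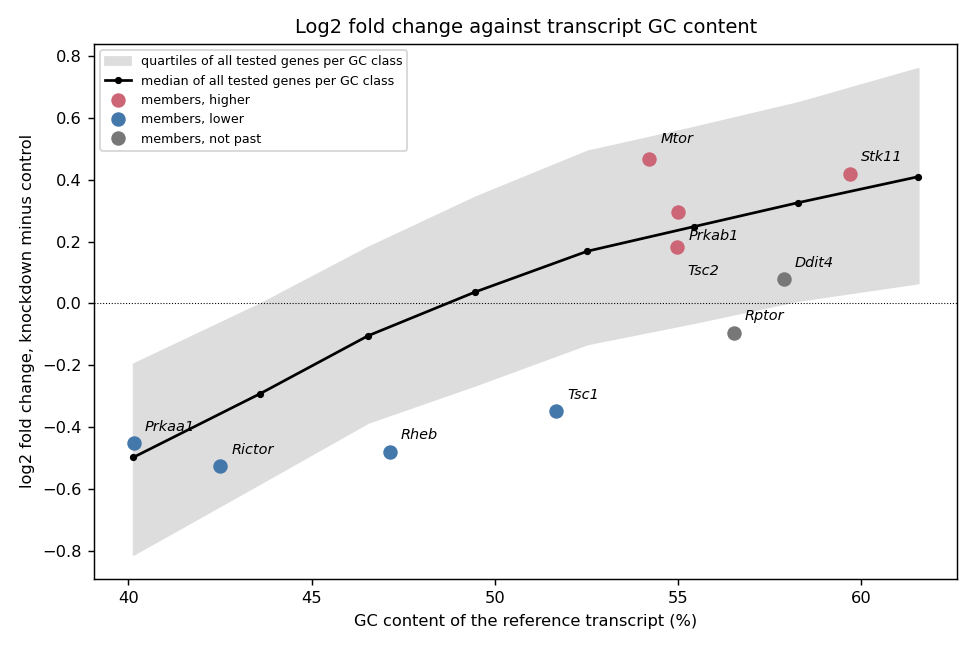
Log2 fold change (y axis, knockdown minus control, of FPKM + 1) against the GC content of the reference transcript (x axis, percent); the line and band are the median and quartiles of all tested genes in 8 GC classes, and circles are members. Rheb, Tsc1 and Rptor lie below the band and the other 7 members inside it.

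In FPKM, which is per gene length, the order of the members' mean levels in control was Ddit4, Stk11, Prkab1, Prkaa1, Rheb, Mtor, Tsc2, Rptor, Tsc1 and Rictor. The libraries of neighbours in this order did not overlap, except for Prkab1 and Prkaa1 (22.8 and 21.6 FPKM). In knockdown Mtor moved ahead of Prkaa1 and Tsc2 ahead of Rheb, and the latter pair overlapped (12.2 and 11.02 FPKM). The span from the highest to the lowest mean was 14.0-fold in control and 24.0-fold in knockdown. Among tested genes the members lay between the 28.5th (Rictor) and the 92.1st percentile (Ddit4) of level in control. The deposited gene lengths equal the merged exons of all annotated isoforms, 16930 bases for Rictor against a longest-coding transcript of 9312, so FPKM understates genes whose cells use a short isoform.

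Genes with the most similar profile were sought for Mtor and Ddit4 among 7226 protein-coding genes with a mean of at least 5 FPKM, by Pearson's r of log2(FPKM + 1) over the 6 libraries, as a description. For Mtor the nearest were Jade2, Fgd1 and Pdia4, each with r = 1.00 (rounded). In all, 1613 genes had r above 0.95, since genes higher in knockdown with little spread inside the groups correlate with it. For Ddit4 the nearest were Rps9 (r = 0.99), Sart1 (0.99) and Nle1 (0.97), and 12 genes were above 0.95.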

How the data were processed

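The authors deposited 1 table of FPKM values for 54532 genes in 6 libraries (3 control, 3 PP2Ac knockdown), from RNA harvested with Trizol and a TruSeq kit, per the labels' protocols, which speak of frozen tissues although the samples are labelled as a cell line. The builds are GRCm38 and mm10 per the submitters' processing notes; no source used here gives the aligner, the counter or whether strand was used. FPKM times gene length fell on whole multiples of 1 step for 100% of non-zero values (tolerance 0.01), which gave reads per gene. Groups were compared with limma 3.58.1 (R 4.3.3, eBayes with trend) on log2 of FPKM plus a pseudocount of 1. The 11652 genes whose mean reached 1 FPKM were kept, with Benjamini-Hochberg adjustment over all of them and a threshold of 0.05. The fit was also run on simulated data, with far fewer changed genes than were called here and no GC trend. That run therefore cannot say how reliable the calls are here. Ratios used exact permutation tests. Fold changes on this scale understate low genes. GC content, UTRs and overlaps come from GENCODE M21, with 1 transcript per gene (longest coding sequence), and promoters from RefSeq. Tables and plots used Python 3.11.15, numpy 2.4.6, pandas 2.3.3, scipy 1.17.1 and matplotlib 3.10.9.

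All 10 members are named, with up to 4 other genes per pathway list by smallest p, the alternative AMPK subunits, and 3 genes most like Mtor and Ddit4 each. Values named beyond that rule were chosen after they were seen. A gene that the rule names is not reported here. The members, lists and tests were chosen with earlier results of these data known. Within groups, reads differed beyond sampling noise (chi-square per degree of freedom 6.58 to 10.0), so no library was merged. The 16 alternative settings covered pseudocounts, filters, scalings, variance models, voom on recovered reads, the replicate number as a block and the omission of single libraries. Removal of the GC trend (loess per library) was added after the data were seen.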

Additional observations from a re-analysis of the deposited data

How the results depend on the processing

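Over the 16 alternatives Mtor, Rheb, Tsc1, Prkaa1, Prkab1 and Stk11 kept their direction and call, as did Rictor in the 15 that tested it (its mean is below 5 FPKM), Rptor and Ddit4 never passed, and Tsc2 passed in 5. Between 6 and 8 members were called, and 39 to 56 pathway genes, a count that includes the members. The lows of 6 and 39 came with a filter at a mean of 5 FPKM, which tests fewer genes. Leaving out each library in turn gave 6462 to 6950 called among all genes, knockdown against control, where 7267 were called with all 6. With the GC trend removed, 5 members were called. Among the members and pathway genes named, values changed sign for Tsc2 (-0.069), Prkaa1 (0.020), Ddit4 (-0.25), Prkag1 (-0.17) and Seh1l (0.077), by log2. So did those of Lamtor1 (-0.24), Lamtor2 (-0.27) and Lamtor4 (-0.028). Prkag1, not called in any of the 16, was also negative with median-of-ratios scaling (-0.020), with mitochondrially encoded genes, rRNA and Gm23935 removed (-0.047) and without knockdown library 2, and ran from -0.015 to 0.079 with single libraries left out. In recovered reads, not per length, the Tsc1 to Tsc2 ratio differed by -0.27 (main -0.22) and the Prkab1 share by 7.97 percentage points (main 5.79), because gene lengths then weigh in. The labels do not say whether the replicate numbers pair the libraries, and the values cannot settle it with 3 libraries per group. Same-numbered libraries' deviations correlated at -0.01, 0.16 and 0.05. Control libraries 1 and 3 and knockdown library 1 did not correlate best with their own number. With the replicate block 7363 of all genes, knockdown against control, were called (3919 higher, 3444 lower), with 8 members and 56 pathway genes, members included. Ppp2ca stayed lower in every setting run. Depth limits Rictor most, with 542 reads in its lowest library.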
